A study of Mus musculus with 7 samples.

Results

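Immediate early genes are switched on within minutes of a stimulus, without new protein synthesis, and 10 of them were examined here in mouse liver: Fos, Fosb, Jun, Junb, Atf3, Egr1, Klf6, Ier2, Dusp1 and Gadd45b. They were chosen by name, and each matched 1 of the 22350 protein-coding genes annotated on chromosomes 1 to 19 and X of the mouse genome build mm9. All peaks of CTCF and of the cohesin subunit Rad21 that overlapped the gene span or the 50 kb to either side of it were collected. These windows held 110 of the 68667 CTCF peaks and 107 of the 68656 Rad21 peaks.

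The peaks came from ChIP-seq of liver nuclei of female mice of the outbred CD-1 stock (Crl:CD1(ICR)), 8 weeks of age, for which the labels name no treatment or genetic change. There were 4 libraries with an antibody to CTCF and 3 with an antibody to Rad21, and no other group was analysed here. The libraries of each antibody were pooled before peak calling, so there is 1 list per factor, no replicate, no SD and no test, and every comparison below sets counts for the 10 genes beside the same counts over all genes. Whole liver was used, so weak binding in all cells and strong binding in few cells cannot be told apart.

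CTCF binds a long, directional DNA motif, and cohesin is a ring-shaped complex that extrudes chromatin loops and is halted where it meets CTCF facing it. Sites with both proteins often mark loop anchors and domain boundaries, whereas cohesin without CTCF is found mainly at active enhancers and promoters. Immediate early genes are short, carry CpG-rich promoters that are kept open before induction, and are induced through serum response factor (SRF), which binds CArG boxes, and through CREB, which binds the cAMP response element. In the liver they respond to partial hepatectomy, feeding, cytokines and tissue handling.

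Class names are those of the study, but the rule differs. The study assigned classes to its sex-differential sites by how many single libraries held the overlapping peak, whereas here the pooled lists were overlapped. A CAC (cohesin-and-CTCF) peak is a peak of either list that overlaps a peak of the other by at least 1 bp, a CNC (cohesin-non-CTCF) peak is a Rad21 peak without CTCF, and a Lone CTCF peak is a CTCF peak without Rad21. A peak was called a promoter peak of a gene if it overlapped the 1000 bp to either side of the transcription start site (TSS), which is the 5′ end of the annotated gene. Positions are those of peak summits relative to the TSS, negative upstream and positive downstream. Strength is the fold enrichment at the summit over local background, and it was compared only within a list.

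Some of these promoters carry the short elements that the family is known for, and stretches that hold them are shown so that the peaks described below can be placed beside them. On the strand of the gene in mm9, CArG boxes are given in capitals for Fos (chr12:86814516-86814555, plus strand, box at -309 to -300) and Fosb (chr7:19895642-19895681, minus strand, box at -272 to -263), and the cAMP response element TGACGTCA is given in capitals in the 200 bp before the TSS of Ier2 (chr8:87186752-87186951, minus strand, element at -45 to -38) and Dusp1 (chr17:26645465-26645664, minus strand, element at -96 to -89).
Fos: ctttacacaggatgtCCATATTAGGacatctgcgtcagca
Fosb: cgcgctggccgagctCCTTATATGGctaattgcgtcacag
Ier2: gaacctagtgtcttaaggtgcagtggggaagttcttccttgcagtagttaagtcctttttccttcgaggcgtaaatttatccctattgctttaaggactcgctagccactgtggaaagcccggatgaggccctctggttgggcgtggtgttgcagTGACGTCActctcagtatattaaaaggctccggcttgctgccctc
Dusp1: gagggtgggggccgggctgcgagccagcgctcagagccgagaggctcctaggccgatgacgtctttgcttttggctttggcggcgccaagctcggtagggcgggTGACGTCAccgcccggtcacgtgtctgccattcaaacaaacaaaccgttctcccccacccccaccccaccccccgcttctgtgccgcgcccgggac

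Within 250 bp before to 50 bp after the TSS, on either strand, a CArG box was found in 1 of 10 genes (Egr1, with 2 boxes), beside 1.47% of all promoters. In a window that began 500 bp before the TSS, which was added after the data had been seen, Fos and Fosb joined it, giving 3 of 10 beside 2.83%. The cAMP response element was present in 2 of 10 (Ier2 and Dusp1), beside 2.33%, and the TATA box TATAAA in 3 of 10 (Fos, Junb and Gadd45b), beside 13.4%. The AP-1 site TGANTCA and the ETS core CCGGAA were in none of the 10 in the shorter window, beside 6.93% and 17.5%. In the longer window the AP-1 site was in 1 of 10 (Fos), beside 13.0%, and the ETS core in 2 of 10 (Junb and Egr1), beside 22.0%. Such a match describes the sequence only.

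A Rad21 peak overlapped the promoter window of each of the 10 genes. In Jun and Gadd45b it reached in from upstream, with its summit outside the window. A promoter Rad21 peak was called in 10 of 10, beside 49.4% of all genes, a promoter CTCF peak in 9 of 10, beside 50%, and a promoter CAC peak in 9 of 10, beside 45.8%. Junb was the gene without CTCF. With a promoter of 500 bp to either side the Rad21 count was 8 of 10, without Jun and Gadd45b. Where -log10 q had to reach 10 it was 9 of 10, without Fosb. Promoter CNC peaks were found in 5 of 10 genes (Fosb, Junb, Klf6, Ier2 and Dusp1), beside 9.12%. At least 2 Rad21 peaks lay within 2500 bp of the TSS in 9 of 10 genes, all but Gadd45b, beside 20.5%.

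All 10 promoters were CpG-rich, with an observed-to-expected CpG ratio of 0.714 (Egr1) to 0.911 (Dusp1) in the 500 bp to either side of the TSS. Among the 10199 genes with a ratio of at least 0.6, the corresponding shares were higher: 81.1% for a promoter Rad21 peak, 82.5% for a promoter CTCF peak and 77.4% for a promoter CAC peak. Set beside these, the counts of 10, 9 and 9 of 10 were close to the shares of CpG-rich genes. The promoter CNC share of CpG-rich genes was 13% and their share with at least 2 Rad21 peaks within 2500 bp was 35.3%, both below the counts of 5 and 9 of 10. Under stricter limits, applied to this count after seeing the data, at least 2 Rad21 peaks lay within 2500 bp in 7 of 10 genes where -log10 q had to reach 10, beside 7.78% of all genes, and in 1 of 10 where the fold enrichment had to reach 5, beside 1.33%. The count of 5 rested mostly on weak peaks near the edge of the promoter window. In 4 of the 5 genes the CNC summit lay between +926 and +1218, with a fold enrichment of 1.83 to 2.90. With a promoter of 500 bp to either side the count was 1, beside 6.59% of all genes. Of the 5 genes, 1 (Junb) had a promoter CNC peak with a -log10 q of at least 10, beside 2.34% of all genes, and none had one with a fold enrichment of at least 5, beside 0.394%, limits applied here to the Rad21 peak alone after seeing the data. Where both lists had to reach a -log10 q of 10 the count was 3, beside 6.18%, because CAC peaks of Klf6 and Ier2 then lost their CTCF partner, and where both had to reach a fold enrichment of 5 it was 0, beside 5.04%. The counts under stricter limits or a 500 bp promoter were set beside all genes only, and no such share was computed for CpG-rich genes. The part of CpG content in these counts was not tested further.

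**Figure D1:**
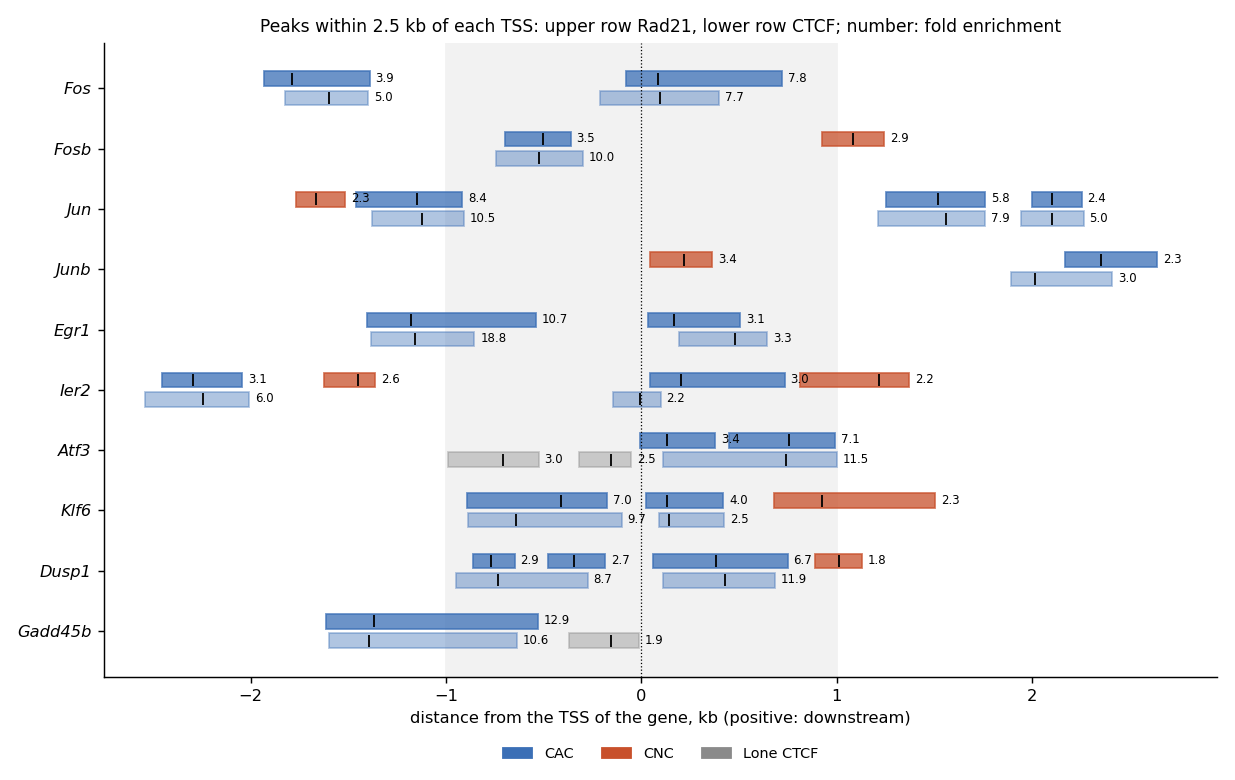
Peaks within 2.5 kb of the TSS of each gene, drawn to scale along the x axis (distance from the TSS in kb, grey band the 1 kb to either side). For each gene the upper bars are Rad21 peaks and the lower bars CTCF peaks, coloured by class, with a tick at the summit and the fold enrichment beside each. Every gene has a Rad21 bar in the band, Junb alone has no CTCF bar there, and the tallest Rad21 values, 12.9 in Gadd45b and 10.7 in Egr1, sit upstream of the band's centre.

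The subunits of the transcription factor AP-1 differed among themselves in where cohesin sat. Fos (chr12:86814840-86818223, plus strand) encodes a subunit that must pair with a Jun protein to bind DNA. It had 1 promoter peak in each list, with the CTCF summit at +94 and a fold enrichment of 7.68 and the Rad21 summit at +88 and 7.78, with both summits in its annotated untranslated region (UTR). A weaker CAC peak lay further upstream, with a CTCF summit at -1601 (4.98) and a Rad21 summit at -1790 (3.85). Thus the Fos CArG box, around -300, lay between the 2 sites, and outside the Rad21 peaks.

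Fosb (chr7:19888070-19895394, minus strand), a close relative of Fos, had a different layout. Its promoter CTCF peak at -525 had a fold enrichment of 9.96. The Rad21 peak over it, at -504, had 3.45 and ranked at the 21.9th percentile of all Rad21 peaks. A CNC peak of 2.90 lay in an intron at +1085. No peak of either list had its summit within 500 bp of the Fosb TSS.

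Jun (chr4:94715725-94718913, minus strand), the partner of the Fos proteins, had cohesin on both sides of its TSS, upstream and inside the gene. A CAC peak with its Rad21 summit at -1147 reached 8.35 for Rad21 and 10.5 for CTCF, in an exon of the neighbouring transcript BC042782. A CAC peak lay in the coding exon (Rad21 summit at +1518, 5.81; CTCF at +1562, 7.90), and a weaker one in the untranslated region with both summits at +2105 (2.36 and 5.03). A CNC peak of 2.35 at -1663 completed the 4 Rad21 peaks within 2500 bp of this TSS.

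Junb (chr8:87500811-87502617, minus strand), which encodes a Jun protein of weaker activating power, carried cohesin without CTCF at its start. Its promoter Rad21 peak at +219 had a fold enrichment of 3.36, only the 19.9th percentile by fold, but its -log10 q of 26.4 ranked at the 63.6th percentile. The next CAC peaks lay just past the 3′ end of the gene, with CTCF summits at +2018, +3126 and +4306 and CTCF fold enrichments of 3.04, 9.70 and 5.76. Each of these 3 carried a CTCF motif.

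Among the other transcription factor genes, Atf3 (chr1:192994175-193007219, minus strand), a stress-induced member of the CREB/ATF family, had 2 promoter Rad21 peaks downstream of its start, a peak that ran from -8 to +378 (3.38) and another with its summit at +758 (7.11). Its CTCF peak at +743 had a fold enrichment of 11.5 and touched both. The 2 remaining promoter CTCF peaks, at -154 (2.51) and -710 (2.96), were Lone CTCF. Cohesin therefore lay on the transcribed side of the Atf3 TSS, with CTCF on both sides.

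Egr1 (chr18:35020861-35024638, plus strand), a zinc finger factor and a well-known target of SRF, had a strong CAC peak upstream and a weak one just downstream of its TSS. The upstream peak had a CTCF fold enrichment of 18.8 at -1157, the highest of the 15 promoter CTCF peaks of the 10 genes, and a Rad21 fold enrichment of 10.7 at -1180. The second peak had a Rad21 summit at +167 (3.12) and a CTCF summit at +478 (3.27), 311 bp apart. Of the CArG boxes of Egr1, 2 were at -105 to -96 and at -83 to -74, which put them between the 2 peaks.

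Klf6 (chr13:5860735-5869639, plus strand), a Krüppel-like factor, carried 3 promoter Rad21 peaks in a row. Their summits lay at -411 (6.98), in the stretch from +23 to +421 (3.97) and at +926 (2.29), and the first 2 were CAC, with CTCF fold enrichments of 9.75 and 2.53. The third was CNC and lay in an intron. The upstream peak was the stronger in both lists.

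Ier2 (chr8:87185230-87186751, minus strand), which encodes a small nuclear protein of the early response, had the weakest promoter of the 10 for Rad21. Its CAC peak had a Rad21 fold enrichment of 3.01 at +204 and a CTCF fold enrichment of 2.19 at -4, the latter at the 0.220th percentile of the CTCF list. Its promoter CNC peak at +1218 had 2.18. A further CNC peak at -1452 (2.61) and a CAC peak with a Rad21 summit at -2297 (3.09) brought the Rad21 peaks within 2500 bp of this TSS to 4, all of them at 3.09 or lower.

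Of the genes that restrain signalling or respond to stress, Dusp1 (chr17:26642535-26645464, minus strand), a phosphatase that inactivates MAP kinases, had the most promoter Rad21 peaks, 4, at -770 (2.89), -345 (2.66), +385 (6.71) and +1012 (1.83). The first 3 were CAC, with CTCF summits at -732 (8.65) and +430 (11.9), and the last was CNC. The cAMP response element of Dusp1, shown above, lay between the peaks at -345 and +385.

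Gadd45b (chr10:80392836-80394949, plus strand), a stress-induced protein that acts on MAP kinase signalling, had a single promoter Rad21 peak, and it was the strongest of all. It lay at -1367 with a fold enrichment of 12.9 (84.9th percentile), over a CTCF peak of 10.6 at -1396. A Lone CTCF peak of 1.92 lay at -156. The strong site was the only 1 of the 15 promoter CTCF peaks of the 10 genes in which a CTCF motif was called, with a score of 18.3 bits against a threshold of 13.2 bits. The 2 promoter CTCF peaks of Egr1 fell just short, with best scores of 12.9 bits each. Among all 12824 CTCF peaks at promoters the share with a motif was 15.1%, and among all 55836 distal CTCF peaks it was 52.6%. In the windows, 37 of 79 distal CTCF peaks carried one (46.8%).

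In 3 of the genes, Jun, Egr1 and Gadd45b, the strongest promoter Rad21 peak was thus a CAC peak more than 1 kb upstream of the TSS, at -1147, -1180 and -1367. In Fosb and Klf6 it also lay upstream, at -504 and -411. In the other 5 genes it lay downstream of the TSS, at +88 (Fos), +204 (Ier2), +219 (Junb), +385 (Dusp1) and +758 (Atf3). A Rad21 summit between the TSS and 500 bp downstream was found in 7 of 10 genes, and in 7086 of the 11008 genes that have a promoter Rad21 summit on this count, so the position was common to promoters in general. The summits of Rad21 and CTCF lay within 100 bp of each other in 9 of 14 promoter CAC peaks of the 10 genes (64.3%), beside 64.6% of all promoter CAC peaks.

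Taken gene by gene, the strongest promoter Rad21 peak had a median fold enrichment of 7.05 over the 10 genes, with a range of 3.01 (Ier2) to 12.9 (Gadd45b). Over the 11051 genes with a promoter Rad21 peak the median was 5.26. The corresponding -log10 q had a median of 68.7 over the 10 genes and 20.2 over all. At a given fold enrichment -log10 q grows with the number of reads behind a peak. The lists hold no read numbers, so their part in the values below was not tested. The rank by -log10 q exceeded the rank by fold enrichment in 19 of 19 promoter Rad21 peaks and in 15 of 15 promoter CTCF peaks of the 10 genes, beside 63.0% and 66.4% of all promoter peaks. The median excess was 15.9 percentile points for Rad21 and 13.4 for CTCF, beside 2.76 and 2.73. This comparison was made after the values had been seen. A higher -log10 q was not confined to promoters. Over all CAC Rad21 peaks of the windows its median was 37.6, beside 25.1 in the whole list, at a fold enrichment of 6.05 beside 6.15. Distal CTCF peaks of the windows had a median of 72.3, beside 28.5, at a fold enrichment of 7.87 beside 6.38.

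**Figure D2:**
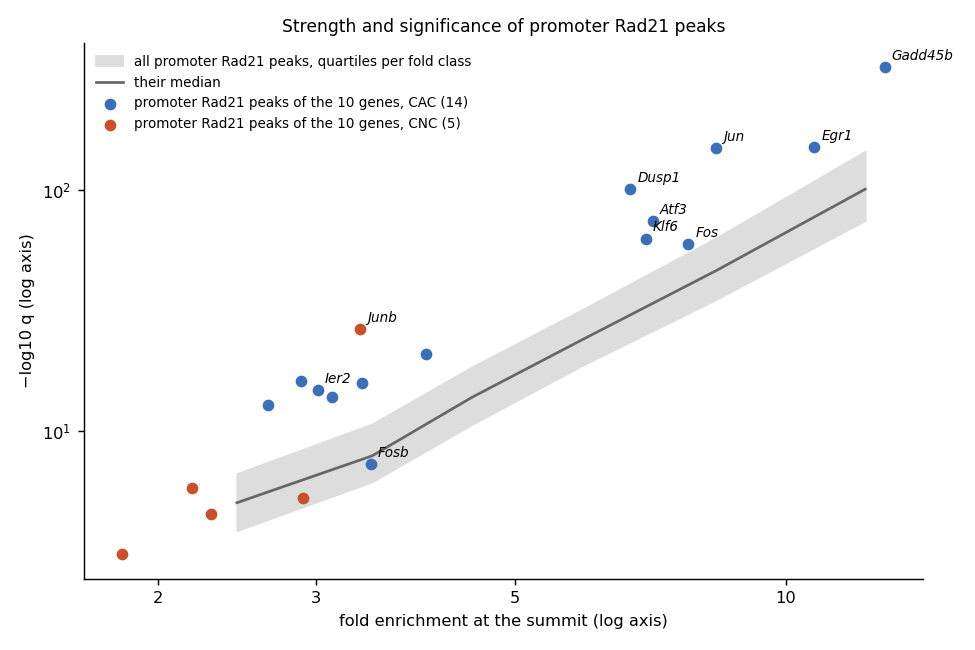
Fold enrichment (x axis, log) against -log10 q (y axis, log) for the 19 promoter Rad21 peaks of the 10 genes, blue for CAC and red for CNC, with the strongest of each gene named. The grey band and line give the quartiles and median of all promoter Rad21 peaks in each class of fold enrichment. Most named genes lie above the band, as Junb does at 3.36 and 26.4, where promoter peaks with a fold of 3 to 4 have a median of 7.90. Fosb lies inside the band and Fos at its upper edge.

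Away from the promoters, cohesin without CTCF was found in most windows, at low fold enrichment. A CNC peak was called distal if it overlapped no protein-coding promoter. The windows held 18 such peaks, and 8 of 10 windows had at least 1, beside 47.3% of all genes. Both counts rested on weak peaks. Of the 18, 6 peaks in 5 windows had a -log10 q of at least 10, where 17.6% of all genes had such a peak, and 0 had a fold enrichment of at least 5, where 7.11% did. Where both lists had to reach these limits the counts were 7 peaks in 5 windows, beside 26.8%, and 1 peak in 1 window, beside 18.6%, each with 1 CAC peak near Ier2 that lost its CTCF partner. Gadd45b had 4, Fos, Ier2 and Dusp1 had 3 each, Atf3 had 2, and Fosb, Jun and Egr1 had 1 each. Junb and Klf6 had none. The median over the 10 windows was 1.5 peaks, beside 0 over all genes. Their median fold enrichment was 3.56, beside 3.48 for all 16140 distal CNC peaks, so they were of ordinary strength, and the highest was 4.53.

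The strongest distal CNC peak of the 10 windows lay upstream of Fos at -26238, between genes, with a fold enrichment of 4.53. Those of Dusp1 (4.43 at -14482), Atf3 (4.40 at -47111) and Egr1 (4.31 at +16377) were also intergenic. That of Gadd45b (4.17 at +41620) lay in an intron of Gng7. That of Ier2 (3.79 at -36381) lay in a coding exon of Trmt1, that of Fosb (2.89 at +54467) in an exon of Opa3, and that of Jun (2.35) was the peak at -1663 described above. Fos had 2 more at +12047 (2.33) and +12436 (3.64), which placed a CNC pair just ahead of its downstream CAC peaks.

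The sequences around the Dusp1 and Gadd45b summits are given because both hold the HNF4 site CAAAGTCC, bound by a nuclear receptor that is central to hepatocyte identity. They run 75 bp to either side of the Rad21 summit on the plus strand of mm9 (Dusp1, chr17:26659871-26660021; Gadd45b, chr10:80434381-80434531), with capitals marking this site on either strand and, in Gadd45b, also the STAT site TTCNNNGAA further to the right.
Dusp1: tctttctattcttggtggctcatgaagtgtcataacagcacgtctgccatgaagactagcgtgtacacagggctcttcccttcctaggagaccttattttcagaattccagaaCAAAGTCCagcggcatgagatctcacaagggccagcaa
Gadd45b: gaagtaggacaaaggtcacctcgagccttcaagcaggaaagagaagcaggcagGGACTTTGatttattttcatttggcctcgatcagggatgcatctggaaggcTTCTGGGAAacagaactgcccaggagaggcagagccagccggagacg

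Within 100 bp of the Rad21 summit the HNF4 site was found in 4 of the 18 distal CNC peaks (1 each near Jun, Atf3, Dusp1 and Gadd45b), beside 3.04% of all distal CNC peaks. The C/EBP site TTGCNNAA, bound by another family of hepatocyte factors, was in 3 of 18, beside 13.5%, the ETS core in 2 of 18 (the pair downstream of Fos), beside 2.89%, and the STAT site in 1 of 18, beside 6.70%. The AP-1 site, to which the Fos and Jun proteins bind, was in 0 of 18, beside 7.26%. The forkhead site TGTTTAC was in 0 of 18, beside 5.02%.

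**Figure D3:**
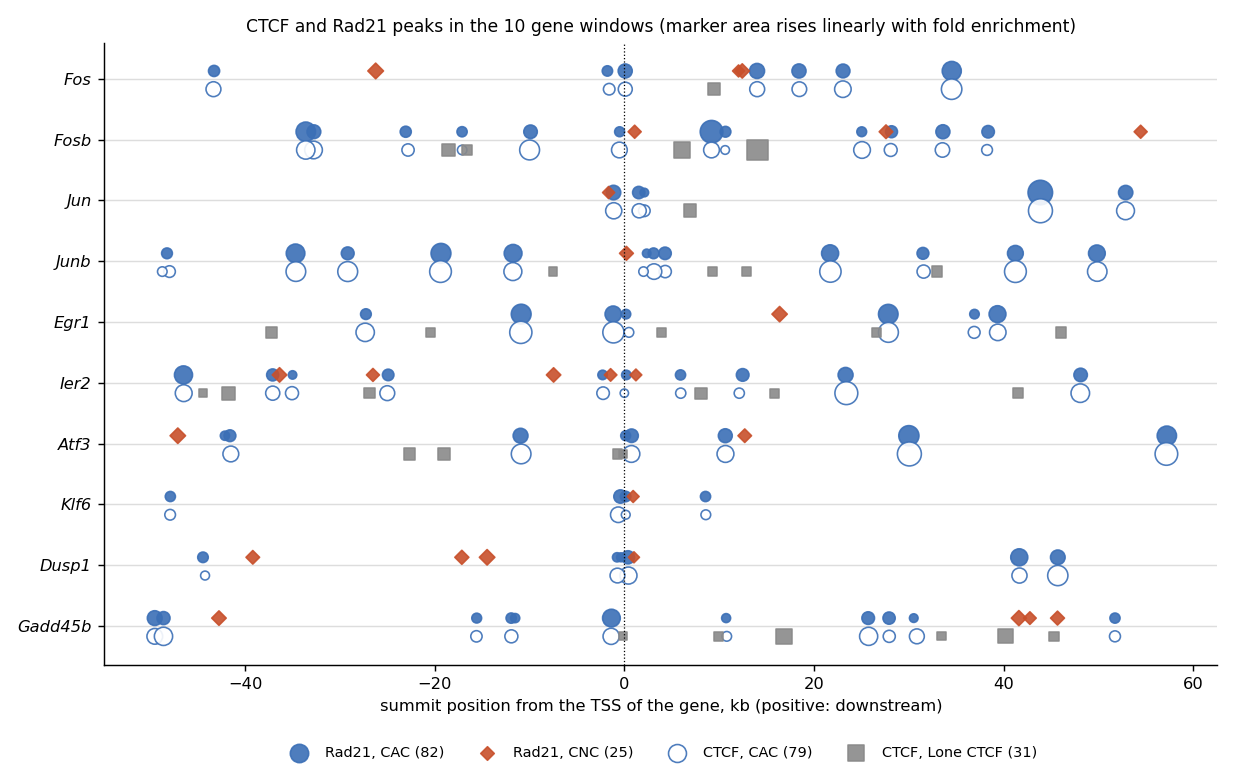
Summits of all peaks in the 10 windows by distance from the TSS (x axis, kb). For each gene the upper row holds Rad21 peaks (filled circles CAC, red diamonds CNC) and the lower row CTCF peaks (open circles CAC, grey squares Lone CTCF), with marker area rising with fold enrichment. The largest Rad21 markers are CAC peaks outside the promoters, such as 25.5 downstream of Jun and 21.6 downstream of Fosb, whereas all red diamonds are small, at 4.53 or lower.

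Shared sites made up about the same share of the windows as of the whole lists. Of the CTCF peaks in the windows, 79 were CAC and 31 Lone CTCF (71.8% CAC, beside 73.7% of all CTCF peaks). Of the Rad21 peaks, 82 were CAC and 25 CNC (76.6% CAC, beside 73.6%). Among the 79 CAC peaks of the CTCF list, 12 lay at the promoters of the 10 genes, 12 at promoters of other genes and 55 were distal. Per window there were 4 (Klf6) to 13 (Junb) of them, with a median of 7 beside 5 over all genes. The windows of Fos, Jun and Klf6 held no other protein-coding gene, while that of Junb overlapped 8.

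The strongest Rad21 peak of any window was a CAC peak 43880 bp downstream of the Jun TSS, with 25.5 for Rad21 (99.4th percentile) and 24.3 for CTCF. The second was a CAC peak 9196 bp downstream of the Fosb TSS, past its 3′ end, with 21.6 for Rad21 and a -log10 q of 576. The CTCF value there was 9.99. Around Atf3, CAC peaks with CTCF summits at +30067 (Rad21 17.0, CTCF 24.3) and +57182 (15.5 and 21.5) were the strongest, and around Ier2 a CTCF peak of 22.1 with a -log10 q of 1113 lay in a coding exon of Cacna1a at +23418. In the window of Klf6 the highest values were those of its promoter, 6.98 for Rad21 and 9.75 for CTCF.

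A flanking CAC peak had to lie wholly outside the gene span. A peak that overlapped the TSS or lay inside the gene was passed over, in all genes alike. On the upstream side the distance to the nearest ranged from 100 bp (Klf6) to 11051 bp (Junb), with a median of 880.5 bp, beside 19039 bp over all genes. The median was 8410 bp in the other primary response genes counted below, 17877.5 bp in the regulators and 5083.5 bp in the hepatocyte transcription factor genes. A median for CpG-rich genes was not computed. Limits were applied to the median of the 10 genes after seeing the data. It was 1152 bp, beside 26319.5 bp, where -log10 q had to reach 10, and 10243.5 bp, beside 32991 bp, where the fold enrichment had to reach 5. Where CAC required summits within 100 bp it was 1456.5 bp, beside 23212 bp. Single genes moved further. With summits within 100 bp, Fos lay at 43163 bp and Klf6 at 47802 bp. With the fold limit, Fos lay at 76085 bp, Dusp1 at 52783 bp, Ier2 at 36841 bp and Fosb at 9787 bp. Without these limits, the nearest upstream CAC peak of Fosb, Jun, Egr1, Klf6, Dusp1 and Gadd45b was a promoter CAC peak. On the downstream side the distance ranged from 85 bp (Junb) to 189531 bp (Klf6). The median was 13586 bp, beside 17478 bp, and under the fold limit 22477.5 bp, beside 30087 bp. Both ends of the range rested on CAC peaks that were weak in at least 1 list. With summits within 100 bp or the q limit, Junb lay at 1071 bp. With these or the fold limit, Klf6 lay at 370482 bp. Downstream, 6 of 10 genes lay below the median over all genes, namely Junb, Fosb (1683 bp), Ier2 (4309 bp), Gadd45b (8528 bp), Fos (10432 bp) and Atf3 (16740 bp). Egr1 (23840 bp), Dusp1 (38491 bp), Jun (40458 bp) and Klf6 lay above it. Upstream, those not at the promoter were 1397 bp (Fos), 2006 bp (Ier2), 10700 bp (Atf3) and 11051 bp (Junb) away.

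A CTCF motif was called at 7 of these 20 nearest CAC peaks, 2 upstream and 5 downstream, beside 55.3% of the nearest CAC peaks of all genes. With a looser motif threshold, at 5% of background windows, it was 11 of 20, beside 71.0%. Of the 7, 6 pointed towards the gene, beside 51.0% of those of all genes. When the nearest CAC peak that carried a motif was taken on each side, 13 of 20 motifs pointed towards the gene, beside 50.9% over all genes. Upstream it was 8 of 10, beside 52.0%, and downstream 5 of 10, beside 49.9%. The motifs of both sides pointed towards the gene in 4 of 10 genes (Fos, Egr1, Klf6 and Dusp1), beside 27.95% of 22151 genes with a motif on both sides. Both pointed away in Ier2, beside 26.3%, and 5 of 10 had 1 of each, beside 45.7%.

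The motifs that frame Fos and Dusp1 from both sides, the downstream motif of Jun and the promoter motif of Gadd45b are shown, with the 20 bases of the motif in capitals. Each is written on the strand that reads towards the G-rich side, and it points to the right on the plus strand and to the left on the minus strand of mm9 (Fos upstream, chr12:86722092-86722121, plus; Fos downstream, chr12:86828868-86828897, minus; Dusp1 downstream, chr17:26603769-26603798, plus; Dusp1 upstream, chr17:26775816-26775845, minus; Jun downstream, chr4:94675023-94675052, plus; Gadd45b promoter, chr10:80391406-80391435, plus).
Fos upstream: catagAAGCCAGAAGGGGGCATCAGatctc
Fos downstream: tcccaCAACCACCAGGTGGCAGAGAtgctg
Dusp1 downstream: ttgggTGTCCAGCAGGTGGCAGCATcagtc
Dusp1 upstream: gccctTGGCCAGCAGAGGGAGCAATtgcaa
Jun downstream: gccatTTTCCACCAGAGGTCACTGTttctc
Gadd45b promoter: tcatgAGGCCACCAGGTGTCGCCGCcgcgc

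The spans between motifs differed by 2 orders of magnitude. They were shortest around Junb (12943 bp), Gadd45b (31279 bp), Egr1 (38269 bp) and Fosb (43117 bp). Ier2 (57969 bp), Fos (106359 bp), Atf3 (162258 bp), Dusp1 (171503 bp) and Jun (285557 bp) followed. Klf6 was enclosed by motifs 1514884 bp apart. The first CAC peak wholly past its 3′ end lay 189531 bp away, with fold enrichments of 2.61 for CTCF and 5.42 for Rad21. A CAC peak inside the gene, in its UTR with a CTCF summit at +8592, was passed over by the rule above. Its fold enrichments were 3.3 for CTCF and 3.7 for Rad21.

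**Figure D4:**
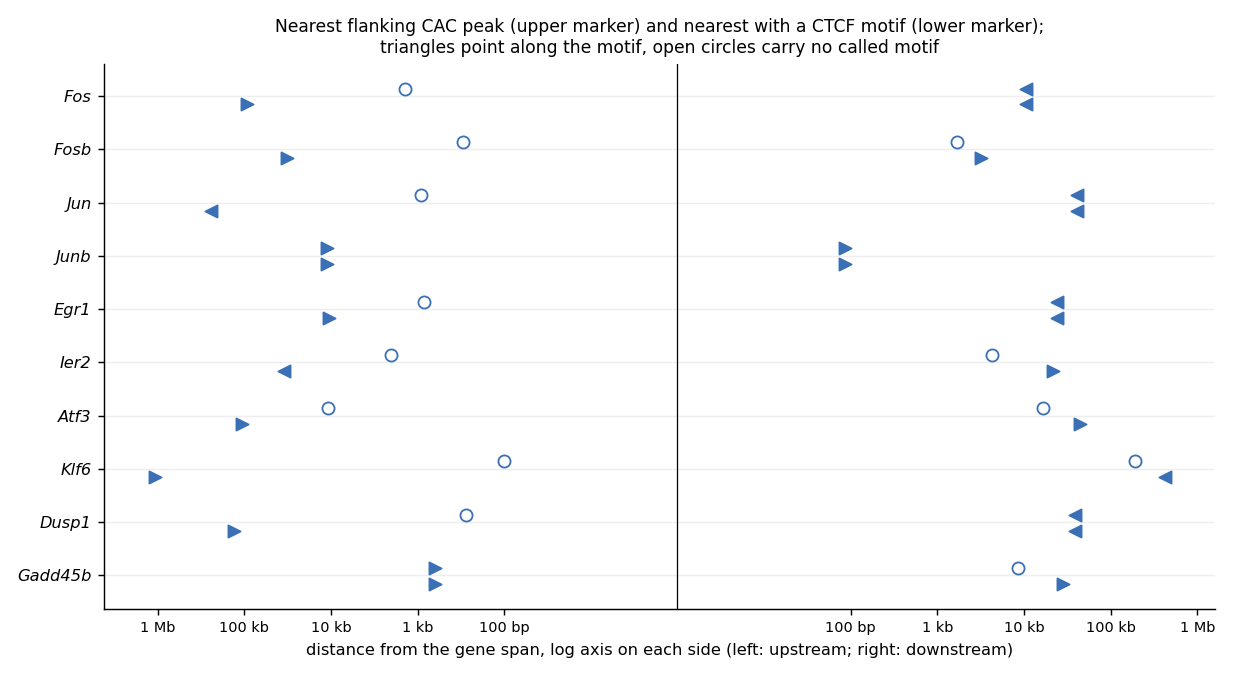
Distance from each gene span to the nearest CAC peak (upper marker) and to the nearest CAC peak with a CTCF motif (lower marker), upstream to the left and downstream to the right, on a log axis on each side. Triangles point along the motif and open circles carry no called motif. Fos, Egr1, Klf6 and Dusp1 have lower triangles that face each other, and those of Klf6 are the farthest apart, at 1084289 bp upstream and 421690 bp downstream.

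Related genes were counted in the same way from lists of pathway members. Of 32 other primary response genes, 24 had a promoter Rad21 peak (75%, beside the 49.4% of all genes and the 81.1% of CpG-rich genes given above) and 4 a promoter CNC peak, 15 had at least 2 Rad21 peaks within 2500 bp of the TSS, and 20 had a distal CNC peak in their window (median 2). The strongest promoter Rad21 peaks among them were those of Egr2 (18.5), Gadd45a (9.15) and Socs3 (8.35), which encode a zinc finger factor, a stress sensor and an inhibitor of cytokine signalling. Of 14 regulators that act upstream, such as Srf and Creb1, 14 had a promoter Rad21 peak, 5 a promoter CNC peak, 9 at least 2 Rad21 peaks within 2500 bp and 11 a distal CNC peak (median 2).

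Of 12 hepatocyte transcription factor genes, 11 had a promoter Rad21 peak, 4 a promoter CNC peak and 11 a distal CNC peak in their window, with a median of 5. As a check of the tissue, 9 of 10 hepatocyte markers had a distal CNC peak in their window (median 4), and 3 of 9 markers of other tissues did (median 0). The immediate early genes had a median of 1.5. A promoter CNC peak was found in 5 of the 10 hepatocyte markers, the same count as in the immediate early genes, and in 0 of the 9 markers of other tissues. Only 3 of the 10 hepatocyte markers had a promoter CAC peak, whereas 9 of the 10 immediate early genes did, and the median CpG ratio was 0.244 in the markers and 0.795 in the immediate early genes.

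**Figure D5:**
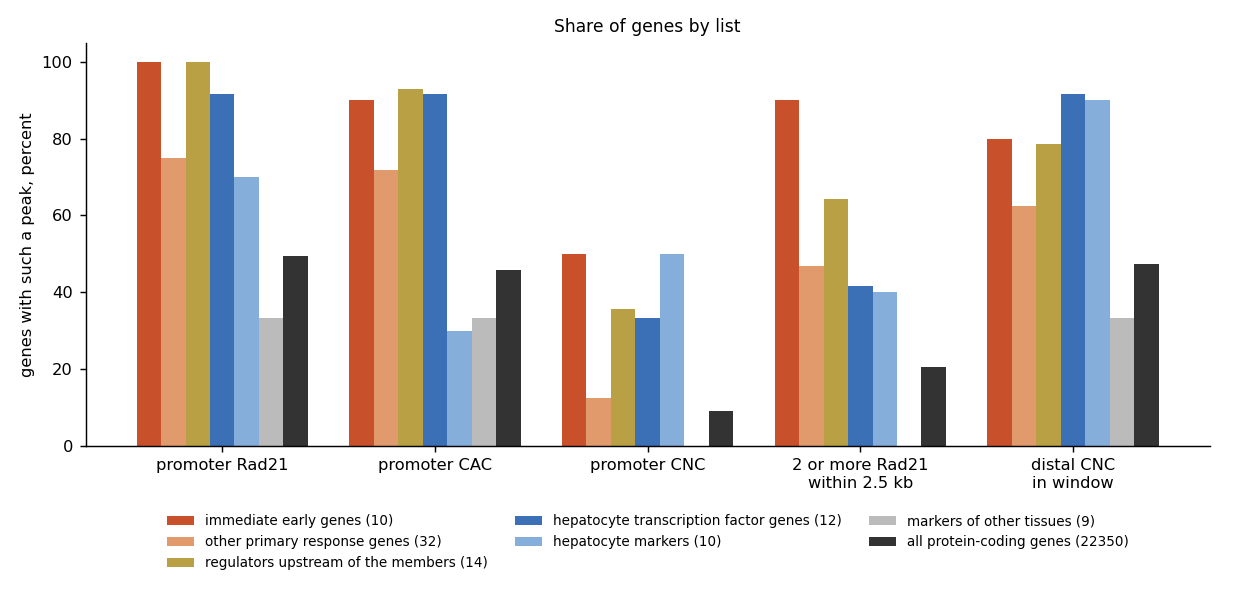
Share of genes (y axis, percent) with each kind of peak in the immediate early genes, 5 comparison lists and all protein-coding genes, with the number of genes in brackets. The bars for the immediate early genes reach 100% for a promoter Rad21 peak, 90% for at least 2 Rad21 peaks within 2.5 kb and 80% for a distal CNC peak, where the bars of all genes reach 49.4%, 20.5% and 47.3%.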

How the data were processed

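ChIP-seq of female liver was analysed from 2 deposited peak lists. Per the labels and the study's methods, the authors aligned the reads to mm9 (Bowtie2), kept unique alignments, merged the 4 CTCF and the 3 Rad21 libraries and ran MACS2 on each merged set, and they discarded blacklisted regions and peaks built from duplicate reads alone. The deposited lists give, for each peak, the fold enrichment at the summit over local background (a ratio), -log10 of p and q, an integer score made from q, and the summit offset in bp. The fold, -log10 q and summit were used as the authors deposited them. No column belongs to a single library (0 left unused), and the lists hold no read depths (the study's sequencing statistics were not used here). A place without a peak may still be bound.

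Overlaps were computed in python 3.11.15 with numpy 2.4.6 and pandas 2.3.3, and figures were drawn with matplotlib 3.10.9. The genome and GENCODE vM1 annotation were of the same build, and no peak lay past a chromosome end. A CTCF motif of 20 bp was learned from the 1000 strongest CTCF peaks of odd-numbered autosomes and searched within 100 bp of CTCF summits, with the threshold (13.2 bits) at 1% of 55849 windows 1000 bp off summits and free of peaks. Overlaps and the motif learner were tested on simulated data. The 10 genes and the gene lists were chosen with earlier results of these data known. Sox1 of the marker list did not match an annotated gene name. The rule for naming took all 10 genes, with their promoter peaks, the strongest distal CNC peak where a window held any and the distance to the nearest flanking CAC peaks. The strongest peaks of some windows, the further Fos, Junb, Jun and Ier2 peaks near the TSS and the comparison of q with fold ranks were singled out after their values were seen. Alternatives were another overlap rule, stricter peaks, other promoter reaches and windows, other transcript starts, and other motif settings.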

Additional observations from a re-analysis of the deposited data

How the results depend on the processing

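Of 56 values recomputed under the alternatives planned, 40 stayed within 1.5 times the value reported and 16 did not. The counts of genes with a promoter Rad21 peak (10), CTCF peak (9) and CAC peak (9) were among the former in each alternative run on them. For the promoter Rad21 peak, a minimum fold of 5 left 7 genes, a 500 bp promoter 8 and a minimum -log10 q of 10 left 9. Promoter CNC genes went from 5 to 3 with -log10 q of at least 10 in both lists (Junb, and Klf6 and Ier2 by CAC peaks that lost their CTCF partner), to 0 with a fold of at least 5 and to 1 with a 500 bp promoter. Distal CNC peaks went from 18 to 7 with the q limit and to 1 with the fold limit (each with 1 Rad21 peak whose CTCF partner was removed), and they went to 9 with 25 kb windows and to 35 with 100 kb windows, and windows with such a peak from 8 to 5 and 1 under the q and fold limits. CAC peaks went from 79 to 47 with the fold limit, 46 with 25 kb and 143 with 100 kb. The median distance to the nearest CAC peak on either side rose from 3157.5 bp to 9480 bp with summits within 100 bp, 7048 bp with the q limit and 13895.5 bp with the fold limit. Motifs at these peaks rose from 7 to 11 of 20 at a 5% background rate. With the q and fold limits on the Rad21 list alone, added after seeing the data, promoter CNC genes numbered 1 and 0, distal CNC peaks 6 and 0 and windows holding any 5 and 0. After seeing the data, the median distance upstream (880.5 bp) was also computed with summits within 100 bp (1456.5 bp) and the fold limit (10243.5 bp), that downstream (13586 bp) with the fold limit (22477.5 bp), and the genes with at least 2 Rad21 peaks within 2500 bp (9) with the fold limit (1). CArG boxes in promoters went from 1 to 3 genes with 500 bp, chosen after seeing the data. Fewer peaks or a changed window enter by construction. No paired analysis was possible because the deposited lists pool the libraries of each antibody, and for the same reason no replicate could be left out. CNC calls depend on a CTCF peak not reaching the calling threshold, and depth limits them.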
